A study of Drosophila melanogaster with 6 samples.

Results

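Neuropeptide precursor genes encode the secreted proteins from which neurons and neurosecretory cells make peptide transmitters and hormones. The 34 genes described here are those whose identifiers carry the current FlyBase symbols of a fixed list of precursors, without the insulin-like peptides, out of 17483 genes in the table. All 34 were found, of which Nplp2 was matched through its Entrez identifier because its older gene identifier has been replaced. The RNA came from brains dissected by hand from 15-day-old w1118 Drosophila melanogaster, a common laboratory strain with white eyes. For 3 libraries the flies fed on normal food with added spermidine, a natural polyamine, and for the other 3 on the normal food alone. The strain, age and tissue were the same in both groups, and dose, sex and the number of brains in a library are not in the labels.

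A neuropeptide is cut out of its precursor by proteases in the secretory pathway, often amidated, packed into dense-core vesicles and released to act mostly on G protein-coupled receptors. Each precursor is made by a small and characteristic set of cells, so that its RNA in a whole brain depends both on the number of those cells and on their RNA content. In whole-brain RNA, fewer peptide cells and less RNA per cell cannot be told apart. In flies these peptides are known for their parts in sleep and daily rhythm, feeding, water balance, stress responses and moulting.

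The deposited values are FPKM, fragments scaled by gene length and by the size of the library, which allow levels of different genes to be set side by side. Differences are on the scale of log2(FPKM + 1), spermidine food over normal food, from limma fitted across 10366 genes of sufficient level, and a gene is said to have risen or fallen where its Benjamini-Hochberg adjusted p was under 0.05. All 34 precursor genes passed the filter on low values. Read counts per library were not used here. The authors' mean normalized counts, which give 1 value per food, summed to 47904049 over all genes on spermidine food and 48052547 on normal food. The labels call the libraries replicates without naming separate cultures or flies, so each p-value reflects only how far these particular libraries spread, possibly for technical reasons.

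The tissue was brain by its markers, with RNA of neighbouring tissues in uneven amounts. The 6 neuronal markers, among them elav and nSyb, summed to between 1568 and 1575 FPKM on spermidine food and between 1595 and 1692 on normal food. The 6 eye markers, led by the rhodopsin gene ninaE, summed to 12640.3, 9083 and 11069.8 FPKM in spermidine food replicates 1, 2 and 3, and to 1452, 9871 and 6259 FPKM in normal food replicates 1, 2 and 3. Normal food replicate 1 thus stood apart with little eye RNA. Of the 8 fat body markers, 6 were tested and 4 rose (fit, Yp1, Yp2 and Yp3), and Fbp2 was listed at 0 in every library. Their sum was 10507, 9629 and 10638.7 FPKM on spermidine food and 2511, 1910 and 2277 FPKM on normal food. Of the 6 haemocyte markers, 5 were tested and Sr-CI rose, and their sum was 78.9 to 82.8 FPKM on spermidine food and 65.4 to 77.4 FPKM on normal food. The muscle markers, 4 of 6 tested and none past the threshold, summed to at most 30.9 FPKM on spermidine food and 49.1 FPKM on normal food. The 6 glial markers, none past the threshold, summed to between 1995 and 2082 FPKM on spermidine food and between 1788 and 2014 FPKM on normal food. Gut markers (3 of 6 tested, none past the threshold) summed to at most 11.1 FPKM on either food.

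Precursor RNAs were abundant in the brain. Their median level over all 6 libraries was 96.0 FPKM, against 15.49 FPKM for all genes tested, and 16 of the 34 (47.1%) averaged at least 100 FPKM, against 8.5% of the genes tested. Another 11 lay between 10 and 100 FPKM and 7 under 10 FPKM. The gap between the highest and the lowest precursor was 2650-fold. Many of the genes are compact, with 15 of 34 under 1000 exonic bases in the Ensembl annotation (range 420 to 4686), and FPKM tends to overstate very short genes. By position, 15 lie on chromosome arm 3R, 6 each on 2L, 2R and 3L, and 1 on X.

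The order of levels was led by 4 genes on both foods. Nplp2, named for its neuropeptide-like precursor and also described as a lipid-binding protein of the haemolymph, had 3258, 3814 and 3129 FPKM on spermidine food and 1693, 940.5 and 1407 FPKM on normal food. Ms, the precursor of myosuppressin, a peptide that inhibits visceral muscle, had 1032, 807 and 908 FPKM on spermidine food and 912, 745 and 792 FPKM on normal food. Orcokinin had 568, 496 and 559 FPKM on spermidine food and 611, 435 and 486 FPKM on normal food. Apart from Nplp2, these values overlapped between the foods. The precursor of drosulfakinin, a satiety signal, followed with Dsk at 383, 381 and 350.2 FPKM on spermidine food and 497, 366 and 412 FPKM on normal food. Over the 6 libraries the range of Ms lay clear of that of Orcokinin, and the range of Dsk clear of that of NPF, which came next.

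From NPF down to Dh31 the levels formed a continuous run between 118.5 and 230.2 FPKM on average, in which the ranges of neighbours overlapped throughout. In that run Pdf, the output signal of clock neurons, had 203, 188 and 219.8 FPKM on spermidine food and 230.4, 159 and 183 FPKM on normal food. Crz, the precursor of corazonin, a stress and metabolic hormone, had 195, 170.5 and 173 FPKM on spermidine food and 211, 159.7 and 189 FPKM on normal food. The foods overlapped in both genes. Of the 33 pairs of neighbours in the whole order, 27 had overlapping ranges. The other 6 separations were those below Ms, Dsk, Tk, Nplp3, CCAP and Nplp4. At the low end stood CCAP, a moulting peptide (4.73 ± 0.279 FPKM on spermidine food and 4.14 ± 0.160 on normal food, SD, n = 3 each), CNMa, AstCC, RYa, Nplp4 and amn. CNMa had 2.19 ± 0.756 FPKM on spermidine food and 2.82 ± 0.272 on normal food (SD, n = 3 each). The lowest, amn, a gene known from memory mutants, had 0.817 ± 0.0308 FPKM on spermidine food and 0.974 ± 0.101 on normal food (SD, n = 3 each). AstC, the source of allatostatin C, and its neighbour AstCC lie 2059 bases apart on the same strand of 2L and averaged 172 FPKM (AstC) and 2.03 FPKM (AstCC) over the 6 libraries. Ranks by mean hardly moved between the foods: 14 genes kept the same rank, and the largest shift was 4 places, in Hug.

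**Figure D1:**
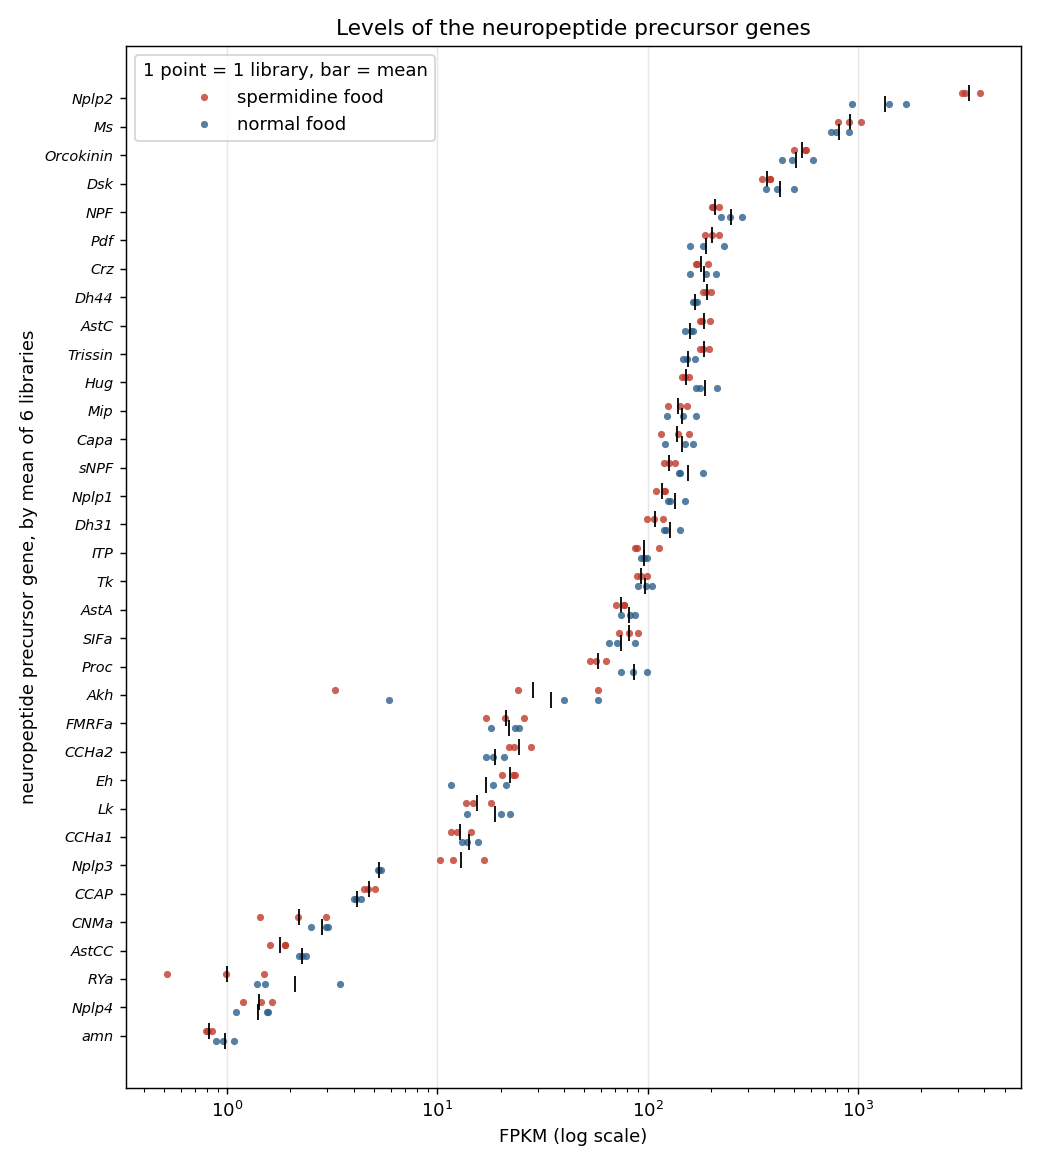
FPKM of the 34 neuropeptide precursor genes on a log axis, ordered by the mean of 6 libraries. Points are libraries (red, spermidine food; blue, normal food) and vertical bars are means of 3; the foods are clear of each other in 15 genes, with Nplp2, Proc and Nplp3 the 3 past the threshold, and Akh spreads from 3.26 to 57.9 FPKM.

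Spermidine food was set against normal food to ask which precursor RNAs differ in the brain at 15 days of age when the polyamine is supplied. Nplp2 and Nplp3 rose and Proc fell. The other 31 did not pass the test, among them the clock peptide Pdf, the stress hormone Crz and the arousal and feeding peptides NPF, sNPF and Hug. The share that rose was 2 of 34 (5.88%), against 3.21% of all 10366 genes tested, and the share that fell was 1 of 34 (2.94%), against 1.52%. The median difference over the precursor genes was -0.06 on the log2 scale, against 0.02 over all genes tested, and 21 of 34 had a lower mean on spermidine food. These shares and medians are descriptions of a list chosen with results of these data known. The sign of that median rested on single libraries: it was 0.0028 (log2) without normal food replicate 1, when 17 of 34 were lower, and 0.012 without spermidine food replicate 2, when 16 of 34 were lower.

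Nplp2 (FBgn0040813, 3L, 13356376 to 13357223) averaged 3400.4 ± 364 FPKM on spermidine food and 1347 ± 379.8 FPKM on normal food (SD, n = 3 each). The log2 fold change was 1.37 ± 0.22 (SE; limma, adjusted p = 0.0278). All 3 spermidine food libraries lay above all 3 normal food libraries. The authors' mean normalized counts were 42846 on spermidine food and 17230.2 on normal food. Nplp2 made up between 41.3% and 48.7% of the summed FPKM of the 34 genes on spermidine food, and between 19.4% and 25.7% on normal food. With Nplp2 the sums of the 34 genes were 7890.1, 7838 and 7435 FPKM on spermidine food and 6582, 4837 and 5654 FPKM on normal food, which do not overlap. Without it they were 4632, 4024 and 4306 FPKM on spermidine food and 4889, 3896 and 4247 FPKM on normal food, which do.

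Nplp3 (FBgn0042201, 3L, 16318024 to 16318690), a second neuropeptide-like precursor, had 10.3, 16.8 and 11.9 FPKM on spermidine food and 5.29, 5.41 and 5.20 FPKM on normal food. The lowest spermidine food library was clearly above the highest normal food library. Its log2 fold change was 1.12 ± 0.16 (SE; limma, adjusted p = 0.0197). Mean normalized counts by the authors were 222 on spermidine food and 91.5 on normal food. The other members of the same naming series did not pass: Nplp1 had 117 ± 6.36 FPKM on spermidine food and 135 ± 14.6 on normal food, and Nplp4 had 1.42 ± 0.217 FPKM on spermidine food and 1.40 ± 0.260 on normal food (SD, n = 3 each). The 6 fat body markers tested were, like Nplp2 and Nplp3, higher in every spermidine food library than in any normal food library. Fbp1, too low to be tested, averaged 0.173 FPKM on spermidine food and 0.216 on normal food. The single markers did not share an order of libraries. The lipoprotein gene apolpp had 194, 236 and 202 FPKM on spermidine food and 156, 98.4 and 146 FPKM on normal food, highest in spermidine food replicate 2 and lowest in normal food replicate 2, as was Nplp2. Lsp2, a larval serum protein gene, had 319, 14.5 and 184 FPKM on spermidine food and 1.22, 2.67 and 0.814 FPKM on normal food, with its lowest spermidine food value in replicate 2. Also lowest in replicate 2 among spermidine food libraries, where Nplp2 and Nplp3 were highest, were fit (435 FPKM), Yp1 (1188 FPKM) and Yp3 (3695 FPKM). Yp2, like apolpp, was highest in spermidine food replicate 2 (4061 FPKM) and lowest in normal food replicate 2 (654 FPKM). The Yp genes are known as yolk protein genes of females, and roX1, a dosage compensation RNA of males, had 6.68 ± 0.407 FPKM on spermidine food and 8.89 ± 0.792 on normal food (limma, adjusted p = 0.0562; SD over 3 libraries each). The part of fat body RNA or of the sex of the flies in these rises was not tested.

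Proc (FBgn0045038, 2L, 7864642 to 7871432) encodes the precursor of proctolin, a peptide that modulates muscle. It had 63.8, 53.5 and 56.9 FPKM on spermidine food and 99.1, 85.5 and 75.1 FPKM on normal food. The highest spermidine food library was below the lowest normal food library. Proc fell by 0.56 ± 0.11 on the log2 scale (SE; limma, adjusted p = 0.0462), close to the threshold. Its receptor gene Proc-R had 26.9 FPKM on spermidine food and 23.8 on normal food, a log2 fold change of 0.18 ± 0.06 (SE; limma, adjusted p = 0.18).

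Each of these 3 calls depended on the libraries. That of Nplp2 held without normal food replicate 1 or 2 and ended without any of the other 4 libraries, with limma adjusted p between 0.0277 and 0.108 over the 6 fits. That of Nplp3 held without spermidine food replicate 1 or 2 and ended without the others, with adjusted p between 0.00972 and 0.0873. That of Proc held only without normal food replicate 3, with adjusted p between 0.0425 and 0.165. The direction was the same in all of these fits. Nplp2 and Proc also ended without the filter on low values (adjusted p = 0.0617 and 0.0829), and Proc without the intensity trend (adjusted p = 0.0622).

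**Figure D2:**
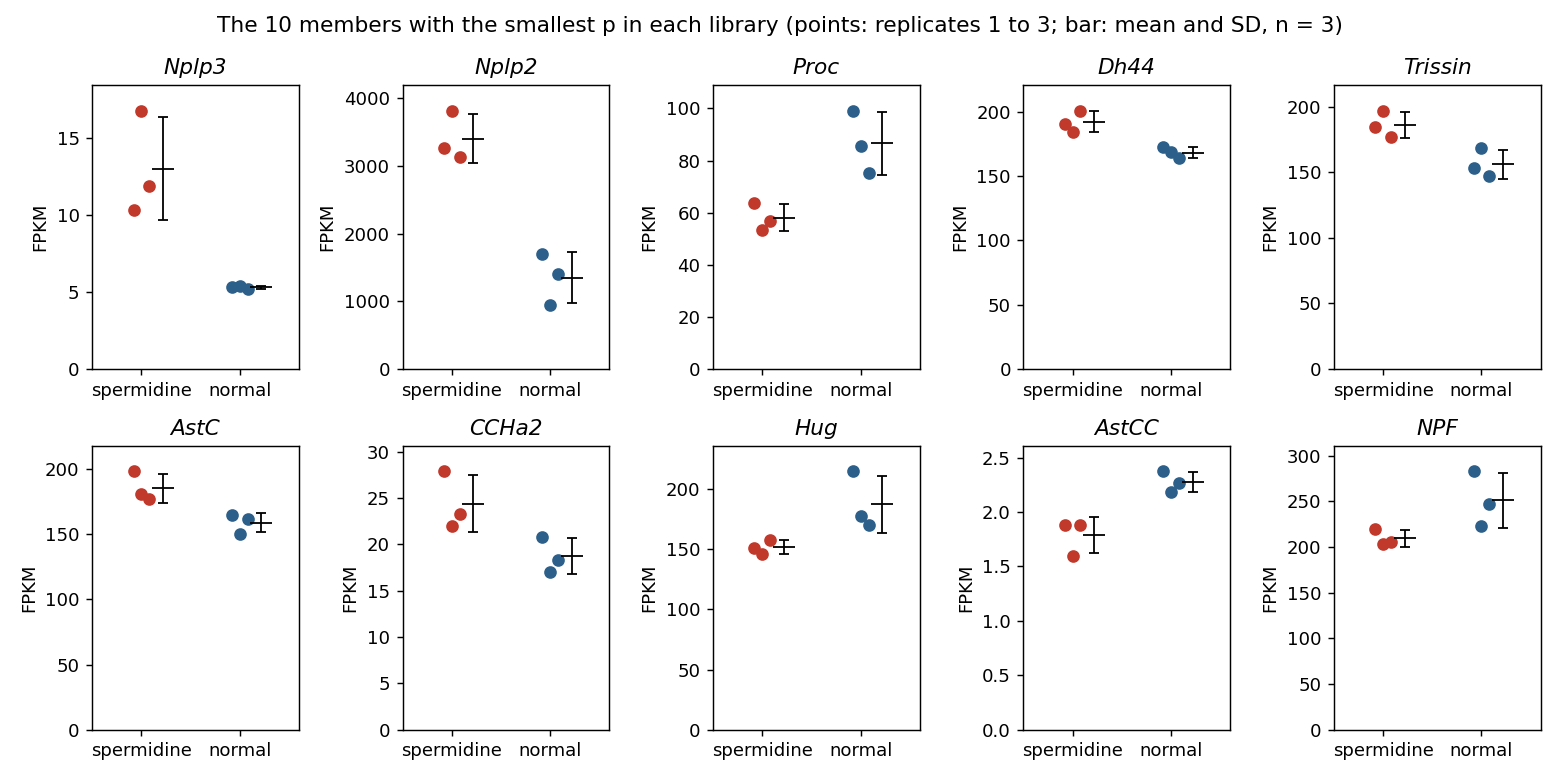
FPKM in each library of the 10 precursor genes with the smallest p, spermidine food left of normal food, with the mean and SD of 3 libraries beside the points. The foods do not overlap in any of the 10, and the gap relative to the level is widest in Nplp2 and Nplp3.

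A further set of genes had foods that did not overlap without passing the test. Counting the 3 genes above, the libraries of the foods were clear of each other in 7 genes that were higher on spermidine food (20.6%, against 17.2% of all genes tested) and 8 that were lower (23.5%, against 10.8%). The higher ones beside Nplp2 and Nplp3 were Dh44, AstC, Trissin, CCHa2 and CCAP. The lower ones beside Proc were Hug, NPF, sNPF, Nplp1, Dh31, AstCC and amn. An exact permutation test of 3 against 3 libraries cannot give a p under 0.1 for any of them.

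Among peptides of rhythm, sleep and water balance, Dh44 and Dh31 are the precursors of diuretic hormones that also act in rest and activity, and neither passed the test. Dh44 had 191, 185 and 201 FPKM on spermidine food and 172, 168 and 164 FPKM on normal food (log2 fold change 0.19 ± 0.04, SE; limma, adjusted p = 0.068). Dh31 had 118, 99.9 and 108 FPKM on spermidine food and 143, 123 and 119.6 FPKM on normal food (log2 fold change -0.24 ± 0.09, SE; limma, adjusted p = 0.195). For Dh44 the measure mattered, since the authors' mean normalized counts were nearly equal at 17048 on spermidine food and 17141 on normal food. Dh44 overlaps Fst on the other strand and Dh31 overlaps Bace on the same strand, so the values of these 4 genes are uncertain where reads overlap. CCHa1, a peptide of sensory sleep control, had 12.9 ± 1.45 FPKM on spermidine food and 14.2 ± 1.33 on normal food (SD, n = 3 each). SIFa, made in a few large brain neurons, had 81.5 ± 8.21 FPKM on spermidine food and 75.0 ± 11.1 on normal food (SD, n = 3 each). ITP, the ion transport peptide, had 96.6 ± 14.9 FPKM on spermidine food and 96.5 ± 3.49 on normal food (SD, n = 3 each). Lk, the precursor of leucokinin, a peptide of water balance, had 15.5 ± 2.23 FPKM on spermidine food and 18.7 ± 4.26 on normal food (SD, n = 3 each). In these last 4 genes the foods overlapped.

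Of the feeding peptides, NPF, the fly relative of neuropeptide Y, had 219.8, 203 and 206 FPKM on spermidine food and 283, 223 and 247 FPKM on normal food (log2 fold change -0.25 ± 0.09, SE; limma, adjusted p = 0.176). Hug, the precursor of hugin peptides that restrain feeding, had 151, 146 and 158 FPKM on spermidine food and 215, 178 and 170.2 FPKM on normal food (log2 fold change -0.30 ± 0.09, SE; limma, adjusted p = 0.131). The short neuropeptide F precursor sNPF had 135, 119.6 and 126 FPKM on spermidine food and 185, 141 and 143 FPKM on normal food. In all 3 genes normal food replicate 1 was the highest library. Without that library their log2 fold changes were smaller, at -0.17 for NPF, -0.20 for Hug and -0.16 for sNPF (limma, adjusted p = 0.245, 0.11 and 0.236).

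CCHa2, a nutrient-responsive peptide of gut and fat body as well as brain, had 27.9, 22.0 and 23.3 FPKM on spermidine food and 20.8, 17.1 and 18.4 FPKM on normal food (log2 fold change 0.36 ± 0.11, SE; limma, adjusted p = 0.122). AstC had 198, 181 and 177 FPKM on spermidine food and 165, 150.4 and 161 FPKM on normal food (log2 fold change 0.22 ± 0.06, SE; limma, adjusted p = 0.0951). Its neighbour AstCC had 1.88, 1.59 and 1.88 FPKM on spermidine food and 2.37, 2.19 and 2.27 FPKM on normal food (limma, adjusted p = 0.144). Trissin, a peptide of brain neurons, had 184, 197 and 177 FPKM on spermidine food and 153, 168 and 147 FPKM on normal food (log2 fold change 0.25 ± 0.07, SE; limma, adjusted p = 0.0914). AstA had 75.2 ± 3.78 FPKM on spermidine food and 81.3 ± 6.42 on normal food, and Tk, the precursor of tachykinins, had 93.4 ± 5.13 FPKM on spermidine food and 97.7 ± 7.48 on normal food (SD, n = 3 each). The foods overlapped in AstA and Tk. Mip, the precursor of myoinhibiting peptides, had 140.2 ± 14.3 FPKM on spermidine food and 147 ± 22.9 on normal food (SD, n = 3 each).

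RNAs of Capa, FMRFa, Eh, Akh and RYa were also present, at unlike levels. Capa, best known from the ventral nerve cord, had 138 ± 21.1 FPKM on spermidine food and 146 ± 22.4 on normal food, and FMRFa had 21.3 ± 4.37 FPKM on spermidine food and 22.0 ± 3.54 on normal food (SD, n = 3 each). Eh, the eclosion hormone gene, had 23.3, 22.9 and 20.4 FPKM on spermidine food and 18.5, 11.6 and 21.2 FPKM on normal food, with overlap between the foods. Akh encodes adipokinetic hormone, the fly counterpart of glucagon, and is known to be made in the corpora cardiaca, glands that lie behind the brain. It had 57.9, 3.26 and 24.2 FPKM on spermidine food and 39.9, 5.92 and 57.8 FPKM on normal food. Its spread within a food, a coefficient of variation of 96.8% on spermidine food and 76.3% on normal food, was far above the medians of the 34 genes, 8.7% on spermidine food and 12.3% on normal food. The interval of its difference ran from -3.31 to 2.38 on the log2 scale, so a difference of several-fold in either direction was not detectable. RYa, low also in mean normalized counts (11.8 on spermidine food and 27.9 on normal food), had 0.517, 0.983 and 1.496 FPKM on spermidine food and 3.44, 1.39 and 1.51 FPKM on normal food (limma, adjusted p = 0.302).

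**Figure D3:**
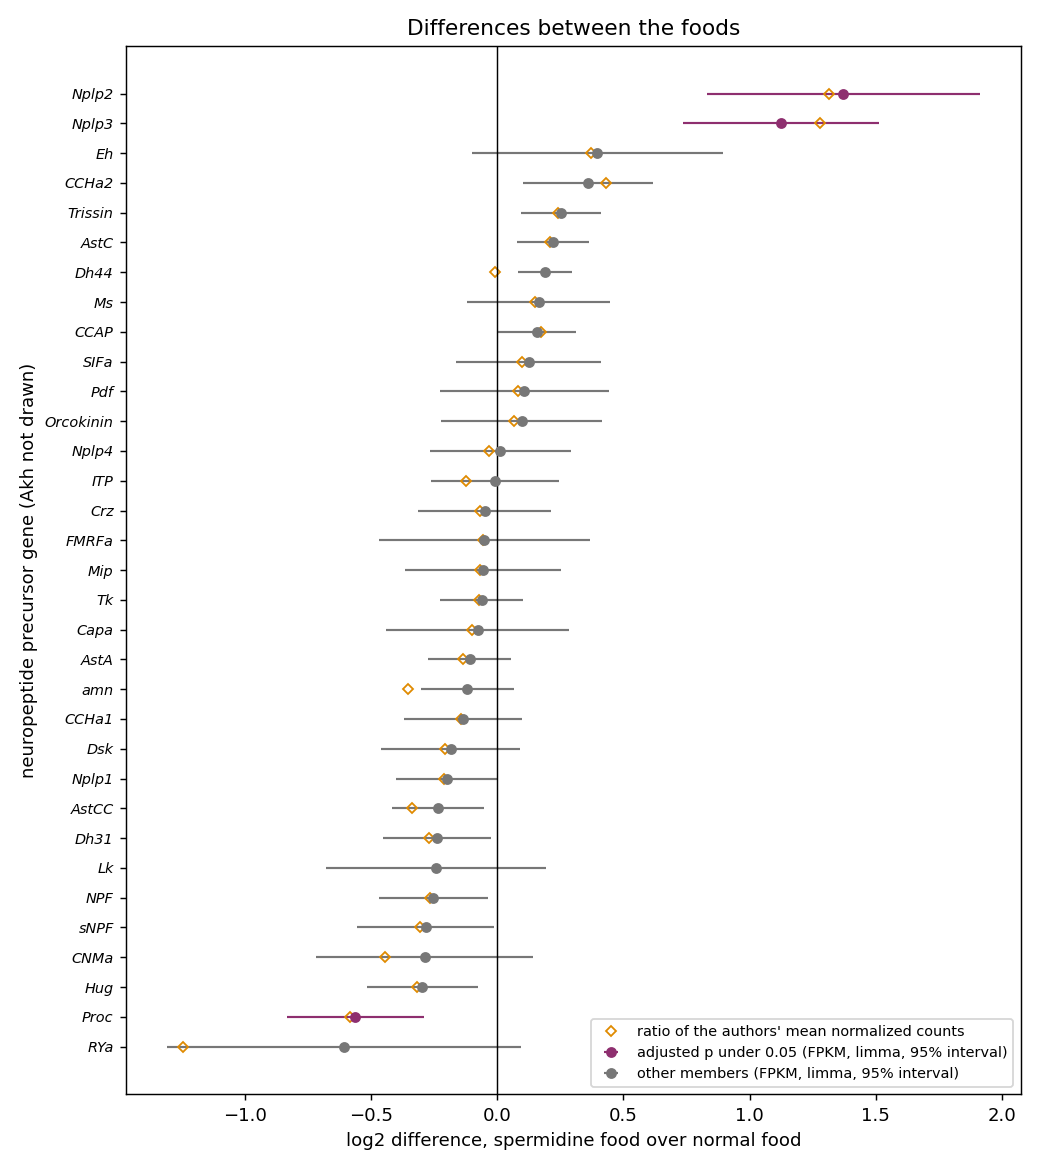
Log2 differences of the precursor genes, spermidine food over normal food, with 95% intervals from limma on log2(FPKM + 1); Akh is left out because its interval runs from -3.31 to 2.38. Open diamonds are log2 ratios of the authors' mean normalized counts, without a pseudocount; they differ most from the points in the low genes RYa and amn and in Dh44.

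The FPKM and the authors' counts gave close ratios for most of these genes. Of the 33 precursor genes with counts, 30 had the same sign by both measures, and 3 differed by more than 0.1 on the log2 scale (9.09%, against 13.9% of the genes tested). For ITP the ratio of the count means was -0.12 and that of the mean FPKM 0.00 on the log2 scale. Lk was listed at 0 in both mean counts, like 377 of the genes tested, although its FPKM was between 13.6 and 22.1, and it overlaps asRNA:CR44843 and CG34039 on the other strand. In all, 10 of the 34 overlap another gene in the annotation, 1 of them on the same strand, and no source used here gives the strand setting of the counting. After Benjamini-Hochberg adjustment over the 10366 genes, the authors' deposited table called 5 precursor genes higher (14.7%, against 8.20% of the genes tested) and 5 lower (14.7%, against 8.70%). The higher ones were Nplp2, Nplp3, CCHa2, AstC and Trissin, with deposited fold changes of 1.82, 1.91, 1.32, 1.15 and 1.18 in the authors' deposited table. For Nplp2 and Nplp3 these were smaller than the ratios of the authors' count means. On the log2 scale they were 0.864 against 1.31 for Nplp2 and 0.934 against 1.28 for Nplp3. The lower ones were Proc, Hug, NPF, Dh31 and Nplp1, with fold changes of -1.41, -1.24, -1.19, -1.2 and -1.15 in the authors' deposited table, where a negative sign means lower on spermidine food. Nplp1 had 120.1, 109.6 and 121 FPKM on spermidine food and 151, 125 and 128 FPKM on normal food, so that all normal food libraries were higher.

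Precursor RNAs moved together from library to library within a food. In the normal food libraries, 28 of the 34 genes were highest in replicate 1 (82.4%, against 46.6% of all genes tested) and 25 were lowest in replicate 2 (73.5%, against 51.3%). In the spermidine food libraries, 23 were highest in replicate 1 (67.6%, against 30.2%) and 21 lowest in replicate 2 (61.8%, against 26.5%). The median deviation of the precursor genes from the mean of their food was 0.16 on the log2 scale in normal food replicate 1 and -0.125 in replicate 2, a span larger than the difference of most precursor genes between the foods. The spread was wider than for genes in general, with a median coefficient of variation of 8.7% on spermidine food and 12.3% on normal food, against 5.51% on spermidine food and 6.21% on normal food for all genes tested. Eye RNA did not follow these positions in the same way on both foods. Among spermidine food libraries replicate 1 had the most eye RNA (12640.3 FPKM over the 6 markers), and among normal food libraries replicate 1 had the least (1452 FPKM). Summed muscle markers were lowest in replicate 1 on spermidine food (8.23 FPKM) and highest in replicate 1 on normal food (49.1 FPKM). The fat body, glial and haemocyte sums were lowest in replicate 2 of both foods. On spermidine food these lows were 9629, 1995 and 78.9 FPKM, and on normal food 1910, 1788 and 65.4 FPKM. The same sums were highest in replicate 3 on spermidine food and replicate 1 on normal food. The neuronal sum was highest in replicate 2 of both foods, and the gut sum was lowest in spermidine food replicate 2 and normal food replicate 1. The part of other tissues in the library differences was not tested.

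**Figure D4:**
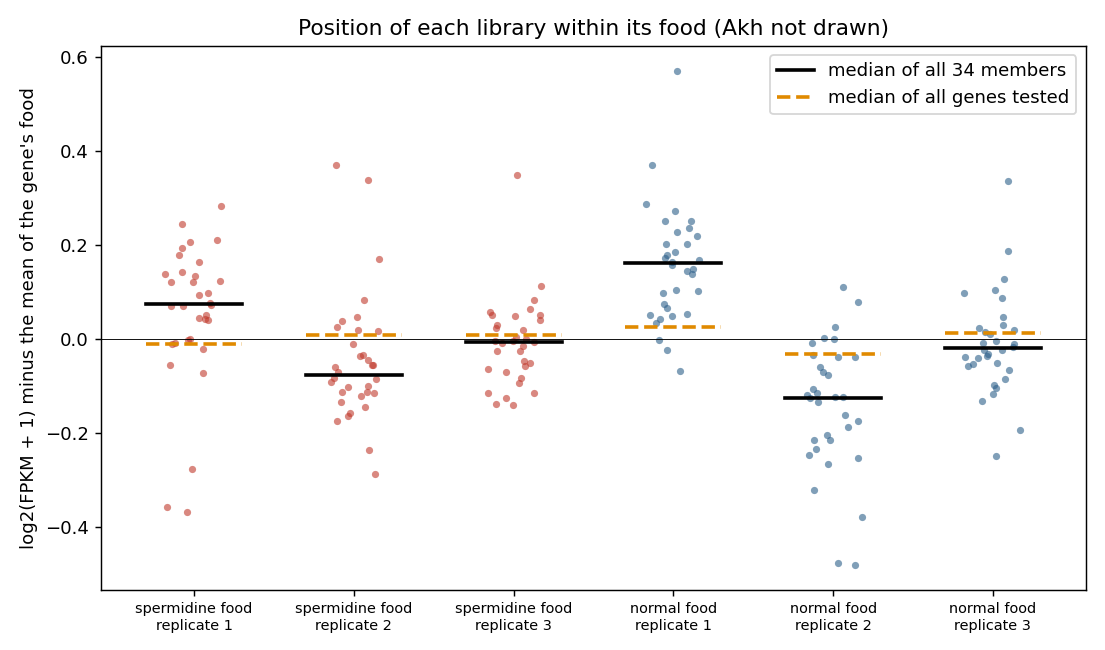
Each point is a precursor gene (Akh not drawn) in a library, as log2(FPKM + 1) minus the mean of its food. Black bars are medians of the 34 genes and dashed bars medians of all genes tested; the black bar is 0.16 in normal food replicate 1 and lies below the dashed bar in replicate 2 of both foods.

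**Figure D5:**
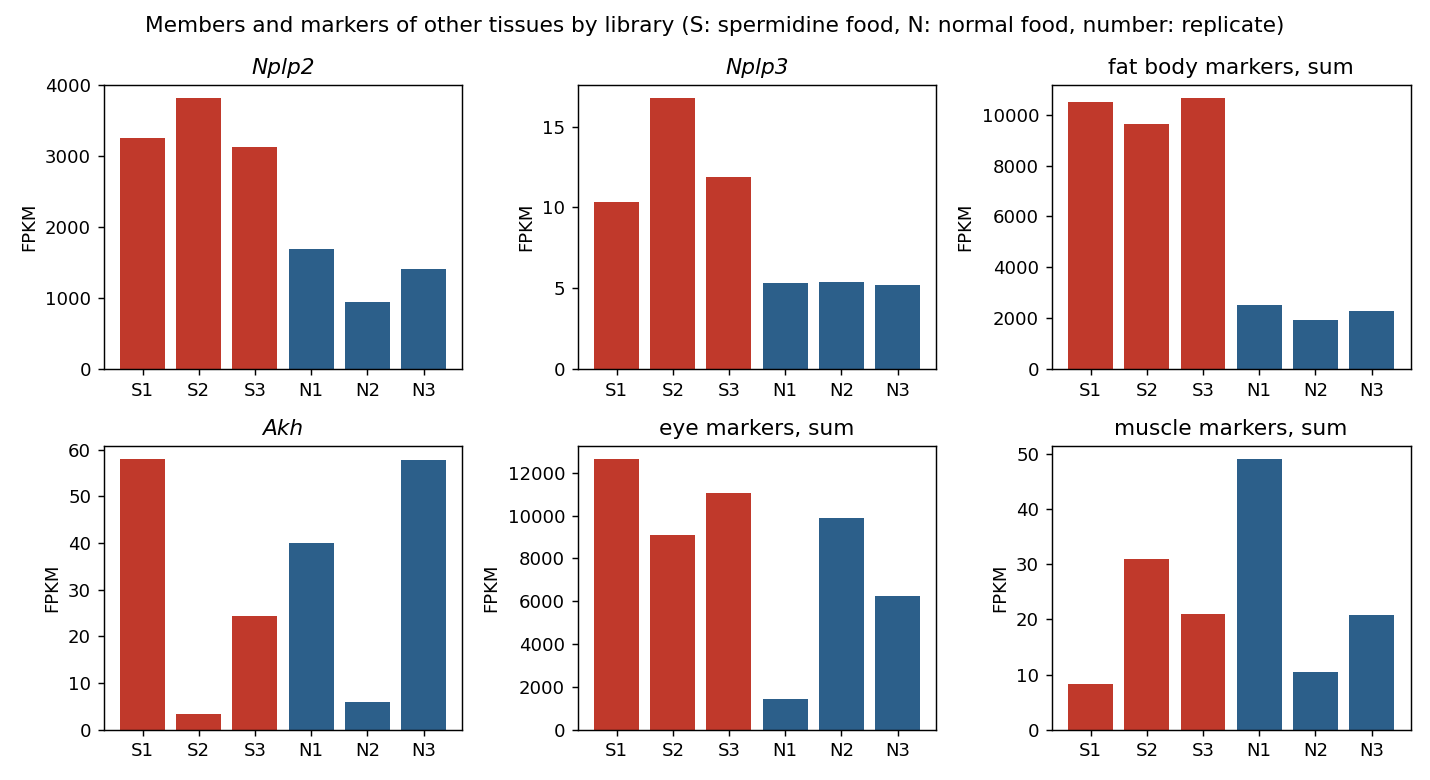
FPKM of Nplp2, Nplp3 and Akh, and summed FPKM of the fat body, eye and muscle markers, in each library (spermidine food in red, normal food in blue). Nplp2, Nplp3 and the fat body sum are higher in all spermidine food libraries, Akh is lowest in replicate 2 of both foods, and the eye sum is lowest in normal food replicate 1.

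Genes that process, pack and sense the peptides were read in the same fit. Of 16 genes for peptide processing and dense-core vesicles, none rose (against 3.21% of all genes tested) and 2 fell (12.5%, against 1.52%). The foods did not overlap in 2 that were higher on spermidine food (12.5%, against 17.2%) and 6 that were lower (37.5%, against 10.8%), and the median difference was -0.03 on the log2 scale. One of those that fell was svr, which encodes a carboxypeptidase that trims cut peptides, with 164, 159.9 and 168 FPKM on spermidine food and 226, 206 and 196 FPKM on normal food (log2 fold change -0.34 ± 0.06, SE; limma, adjusted p = 0.0306). The other was Cadps, which encodes a protein that primes dense-core vesicles for release, with 192, 189.8 and 179.6 FPKM on spermidine food and 228, 223 and 215 FPKM on normal food (log2 fold change -0.24 ± 0.04, SE; limma, adjusted p = 0.0336). In both genes every spermidine food library was below every normal food library. Sytbeta, a synaptotagmin, had 25.0 FPKM on spermidine food and 28.1 on normal food (limma, adjusted p = 0.106). The protease amon, which cuts most neuropeptide precursors in the fly, did not pass (178 FPKM on spermidine food and 195 on normal food), and dimm, a transcription factor of peptidergic cells, had 1.98 FPKM on both. Of 32 neuropeptide receptor genes none passed the test (limma; 6 had an unadjusted p under 0.05, 18.8%, against 21.1% of all genes tested), with a median difference of -0.04. The smallest p belonged to CNMaR, with 12.8 FPKM on spermidine food and 14.8 on normal food, Proc-R and PK2-R2, with 2.76 FPKM on spermidine food and 2.32 on normal food.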

How the data were processed

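RNA of brains of 15-day-old w1118 flies was sequenced in 6 libraries, 3 per food, with a stranded mRNA kit after Trizol extraction, per the labels' protocols. FPKM per gene and library, with an estimation status, were computed and deposited by the authors. HTSeq, Cufflinks and DESeq are named without roles or versions in the submitters' processing notes, with no aligner among the names. Ensembl build 82 supplied the gene models, per the file headers. The authors also deposited a signal (mean normalized count per food), a signed fold change used here as a score, and an unadjusted p-value. Of 11 sheets, 1 holds all genes and was used. Coordinates are those of the table; all 34 positions matched the Ensembl annotation of assembly BDGP6 within 2000 bases, which gave exonic lengths.

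Genes with a status other than OK in any library (215) were left out, as were genes under an FPKM of 0.5 in more than 3 libraries, leaving 10366. Values of log2(FPKM + 1) were fitted with limma 3.58.1 (R 4.3.3), using an intensity trend and no covariates, two-sided, with Benjamini-Hochberg adjustment over all genes and a threshold of 0.05. The scale understates changes of low genes. The fit was tested on simulated data with independent noise in each gene and library. Those data hold no shift shared by many genes of a library, so they cannot show how the calls fare under such shifts. Depth per library is not in the table, so no counting intervals are given. The members, the other lists and the tests were chosen with earlier results of these data known. Values in every library are given for precursor genes past the threshold, the 10 highest, the 10 with the smallest p and those called by the authors' p-values, and other lists are represented by genes past the threshold and the 3 with the smallest p; sNPF, Akh, Eh and RYa, and amon, dimm, roX1, apolpp and Lsp2 among the other lists, were added after their values were seen. Over all genes tested, same-numbered libraries of the foods did not deviate together, and the replicate numbers were not used as pairs. Most precursor genes, however, were highest in replicate 1 and lowest in replicate 2 of both foods. The labels do not say whether the numbers pair the libraries.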

Additional observations from a re-analysis of the deposited data

How the results depend on the processing

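The counts of precursor genes past the threshold (2 higher, 1 lower) and of all genes (491, with 333 higher and 158 lower) depended on the processing. Without the filter on low FPKM they were 1 higher and 0 lower, and 261 genes (186 higher, 75 lower). Without an intensity trend 0 precursor genes were lower. With a threshold of 0.1, 5 were higher, and 978 genes passed (644 higher, 334 lower). With the authors' deposited p-values 5 were higher and 5 lower, and 1752 genes passed (850 higher, 902 lower). With each library left out in turn, 0 to 1 precursor genes were higher and 0 to 1 lower, and 55 to 322 genes passed (49 to 239 higher, 6 to 94 lower), fewest without spermidine food replicate 3; such fits have fewer libraries. With the replicate number as a block (replicate block), 257 genes passed (183 higher, 74 lower), Nplp2 did not (adjusted p = 0.0894) and CCHa2 did (adjusted p = 0.0403), with 2 precursor genes higher and 1 lower. Over all genes tested, same-numbered libraries correlated in their deviations at -0.051, -0.10 and 0.018. A correlation over all genes cannot decide whether the numbers pair the libraries for a subset. Of the 34 precursor genes, 28 were highest in replicate 1 on normal food and 23 in replicate 1 on spermidine food. Whether the numbers mark pairs was not tested further. The counts moved by less than 1.5 times with a pseudocount of 0.1, an FPKM minimum of 1 (which leaves out amn) and median-ratio scaling. The median difference of the precursor genes was between -0.155 and 0.0124 without each library in turn. No called gene changed direction. Among genes that did not pass, the sign changed in Nplp4 under median-ratio scaling (-0.00071) and in Dh44 (-0.014), Nplp4 (-0.014) and Lk (0, with no counts) in the authors' deposited values. With each library left out in turn, log2 differences that changed sign ranged from -0.012 to 0.23 for Orcokinin, -0.017 to 0.25 for Pdf, -0.16 to 0.042 for Crz, -0.17 to 0.052 for Mip, -0.20 to 0.041 for Capa, -0.13 to 0.062 for ITP, -1.41 to 0.59 for Akh, -0.19 to 0.092 for FMRFa and -0.082 to 0.081 for Nplp4. Beyond fewer genes or libraries, the cause was not tested. Without counts per library, depth limits cannot be given.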
